A study of Mus musculus with 9 samples.

Results

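The 10 genes described here were listed together as germline genes silenced by promoter DNA methylation: Dazl, Ddx4, Mael, Sycp1, Sycp3, Stk31, Slc25a31, Tex101, Mov10l1 and Prdm1. Of these, Prdm1 also acts outside the germline, in endoderm and in blood. They were chosen by symbol, as every probe set that the array annotation pairs with 1 of these symbols alone, which gave 12 probe sets for 10 of the 18193 genes on the array. Dazl and Stk31 had 2 probe sets each and the other genes 1. RNA of the mouse embryonic stem cell (ESC) line E14, untreated, was hybridized to 4 Affymetrix arrays of the mouse genome (numbered 2, 6, 8 and 10). Embryoid bodies, which are balls of differentiating cells grown from ESCs, here of the same line, gave the RNA for 5 more (numbered 1, 3, 5, 7 and 9). The age and culture of the embryoid bodies are not given in the sources used here, and all results concern a single ESC line. DNA methylation was not measured, and Mael, Ddx4 and Sycp3 were far from silent in ESCs, so the genes are called germline genes below.

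Germ cells use these genes to make gametes and to guard the genome against transposons. In somatic cells many of their promoters, which are rich in CpG, carry DNA methylation, set by the Dnmt3 enzymes and kept by Dnmt1. In ESCs a separate repressor built on Max and Mga, with E2f6, L3mbtl2 and Pcgf6, also occupies many germline promoters, and Tet enzymes act against methylation.

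Values are the log2 of the deposited GCRMA intensities, a scale that ran from 1.09 to 15.19. Values under log2 4, called the floor here, made up 49.1% to 49.9% of each array. The levels of different probe sets were not tested against one another, because probes bind with different strength. They are sorted only roughly, against log2 4 and log2 6. Whether a value above log2 4 lies above the background of its probe set was not tested. Arrays 2 and 6 resembled each other among the ESC arrays (Pearson r = 0.998 across probe sets), as did arrays 8 and 10 (0.998), and pairs across them reached 0.995 to 0.996. Embryoid body arrays 1, 3 and 5 (0.998 to 0.999) and arrays 7 and 9 (0.998) stood apart in the same way (0.997 to 0.998 across), and results are also given without each of these sets where that matters. Of 11 pluripotency genes 10 were lower in embryoid bodies, and their summed intensity fell from between 22650 and 24400 per ESC array to between 2693 and 4929. Of 14 genes of mesoderm and heart 8 were higher in embryoid bodies, with a sum of 14520 to 17300 against 441.9 to 712.7. In whole cultures, fewer cells that express a gene and less RNA per cell cannot be told apart. Of 13 endoderm genes 6 were higher, with a sum of 1563 to 1765 against 395.3 to 463.3. Of 14 spermatid genes 0 passed the test (limma with Benjamini-Hochberg adjustment), and 4 were lower at an unadjusted p under 0.05. The summed intensity of the 14 was 402.2 to 437.5 in ESCs and 358.1 to 396.3 in embryoid bodies. Under log2 4 in both groups lay 8 of the 14, among them Prm2, Tnp2 and Gapdhs. Tnp1 (means 7.18 and 6.91), Prm1 (5.61 and 5.55), Pgk2, Acrv1, Ldhc and Odf1 lay above it in both. That does not show that they were expressed, since the background of their probe sets was not tested. Of 15 markers of gonadal somatic cells only Gata4, which the heart and endoderm express too, was called higher and 0 lower by limma (2 lower at an unadjusted p under 0.05), and 9 lay under log2 4 in both groups. The part of these cell types in the results below was not tested.

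Some of the germline genes had clear ESC signal that was lost or reduced in embryoid bodies. Others had weak signal, moderate values in both groups, or values at the floor throughout. Mael, Ddx4 and Sycp3 lay far above the floor in ESCs and fell by log2 3.08 to 5.05. Stk31 and Dazl lay near it and fell by log2 1.09 and 0.92. Sycp1, Slc25a31 and Tex101 lay at the floor in both groups, while Mov10l1 and Prdm1 gave moderate values in both. Whether these moderate values lie above the background of their probe sets was not tested. Prdm1 read the same 6.27 on ESC array 8 and embryoid body array 3. With 1 probe set for each gene, the one with the highest mean, 5 of the 10 genes were called lower in embryoid bodies by limma at an adjusted p under 0.05 and 0 higher. At an unadjusted p under 0.05, 9 were lower and 0 higher, beside 33.9% of all genes lower and 3502 of the 18193 higher. The 9 include Sycp1, Slc25a31 and Tex101. Of all genes under log2 4 in both groups, 89.8% had the lower mean in embryoid bodies. At the adjusted threshold, 14.7% of all genes were called lower and 15.7% higher. The median difference was -0.64 for the 10 genes and -0.04 for all genes. In 5 of the 10 each ESC array lay above each embryoid body array, as in 19.4% of all genes. A fall of log2 3 or more was found in 3 of the 10 and in 0.363% of all genes.

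**Figure D1:**
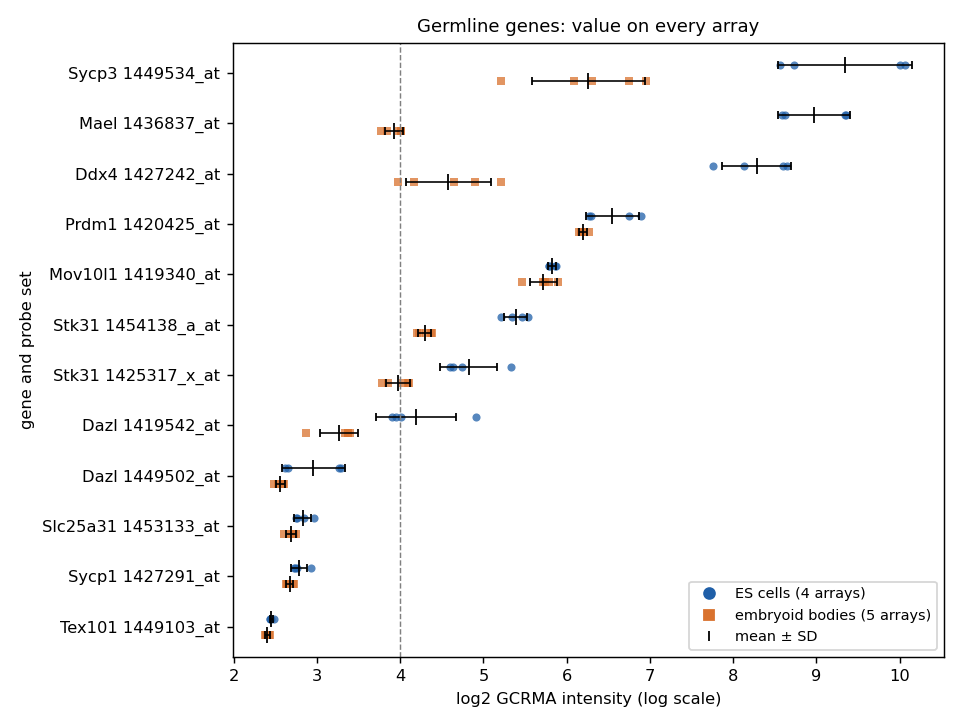
Values of the 12 probe sets of the 10 germline genes (horizontal axis, log2 GCRMA intensity) on each of 4 ESC arrays (circles) and 5 embryoid body arrays (squares), with the mean ± SD as a black mark and bar and log2 4 as a dashed line. Sycp3, Mael and Ddx4 lie between 7.76 and 10.07 in ESCs and between 3.77 and 6.95 in embryoid bodies.

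Mael is a protein of the nuage, the germ granule in which PIWI-interacting RNAs (piRNAs) are made, and is needed for transposon silencing in the male germline. Its ESC values were 9.36, 9.34, 8.62 and 8.59 on arrays 2, 6, 8 and 10. Its embryoid body values were 3.77, 3.84, 4.01, 3.99 and 4.01 on arrays 1, 3, 5, 7 and 9. The groups were far apart, with a gap of 4.58 between the lowest ESC and the highest embryoid body array, and the embryoid bodies had reached the floor. Mael fell by 5.05 on the log2 scale (SE 0.179, 95% interval -5.46 to -4.65, limma adjusted p = 2.3e-07), which is 33.2-fold, and since its embryoid body values lie at the floor this size depends on how the floor is treated. With 16 added to each intensity before the log2, the difference was -4.06. It was -4.68 without ESC arrays 2 and 6 and -5.43 without ESC arrays 8 and 10.

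Ddx4 (Vasa) is a DEAD-box RNA helicase of the same granules and a classical marker of germ cells. Its values were 8.59, 8.64, 8.12 and 7.76 on the ESC arrays in the same order, and 5.21, 4.90, 3.97, 4.17 and 4.64 on the embryoid body arrays. All 4 ESC arrays lay above all 5 embryoid body arrays, and the latter were more scattered than for Mael (SD 0.509 against 0.112), with arrays 1 and 3 highest. Ddx4 fell by 3.70 (SE 0.283, 95% interval -4.34 to -3.06, limma adjusted p = 1.5e-05), or 13.0-fold. Embryoid body arrays 5 and 7 lay at the floor, and with 16 added to each intensity the difference was -3.02. Its difference was -3.37 without ESC arrays 2 and 6 and -4.04 without ESC arrays 8 and 10.

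Sycp3 is a structural protein of the chromosome axis in meiosis. Its ESC values were 10.01, 10.07, 8.74 and 8.56, and its embryoid body values were 6.75, 6.95, 6.30, 6.09 and 5.21. The groups did not overlap, but both were wide, and the embryoid bodies kept values above the floor on each array. Sycp3 fell by 3.08 (SE 0.439, 95% interval -4.08 to -2.09, limma adjusted p = 7.2e-04), or 8.46-fold. The fall was 2.39 without ESC arrays 2 and 6 and 3.78 without ESC arrays 8 and 10, at adjusted p of 0.0067 and 7.4e-04 by limma.

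Stk31 encodes a Tudor-domain protein with a kinase-like domain, expressed in germ cells. The probe set 1454138_a_at gave 5.53, 5.46, 5.22 and 5.34 in ESCs and 4.22, 4.36, 4.38, 4.20 and 4.31 in embryoid bodies. Neither group spread by more than 0.32, and they lay 0.84 apart at the nearest arrays, although the levels were low. Stk31 fell by 1.09 (SE 0.0708, 95% interval -1.25 to -0.93, limma adjusted p = 5.4e-06). The other probe set, 1425317_x_at, whose suffix marks probes that may also bind other transcripts, fell by 0.85 (SE 0.15, limma adjusted p = 0.0027), and its groups did not overlap either. With 16 added to each intensity the difference of the first probe set was -0.70.

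Dazl is an RNA-binding protein needed for germ cell development. The probe set 1419542_at gave 3.95, 3.90, 4.01 and 4.91 in ESCs and 3.34, 2.87, 3.38, 3.37 and 3.39 in embryoid bodies. ESC array 10 was well above the other ESC arrays, which lay around the floor, and embryoid body array 3 was below the rest. Dazl fell by 0.92 (SE 0.215, 95% interval -1.41 to -0.44, limma adjusted p = 0.013), and the difference was -0.68 without ESC array 10. With 16 added to each intensity it was -0.43, and without embryoid body arrays 1, 3 and 5 the call was lost (-0.81, limma adjusted p = 0.20). The other probe set, 1449502_at, with values from 2.61 to 3.29 in ESCs and from 2.49 to 2.61 in embryoid bodies, did not pass (difference -0.39, limma adjusted p = 0.081), and its groups were separated by only 0.0015.

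**Figure D2:**
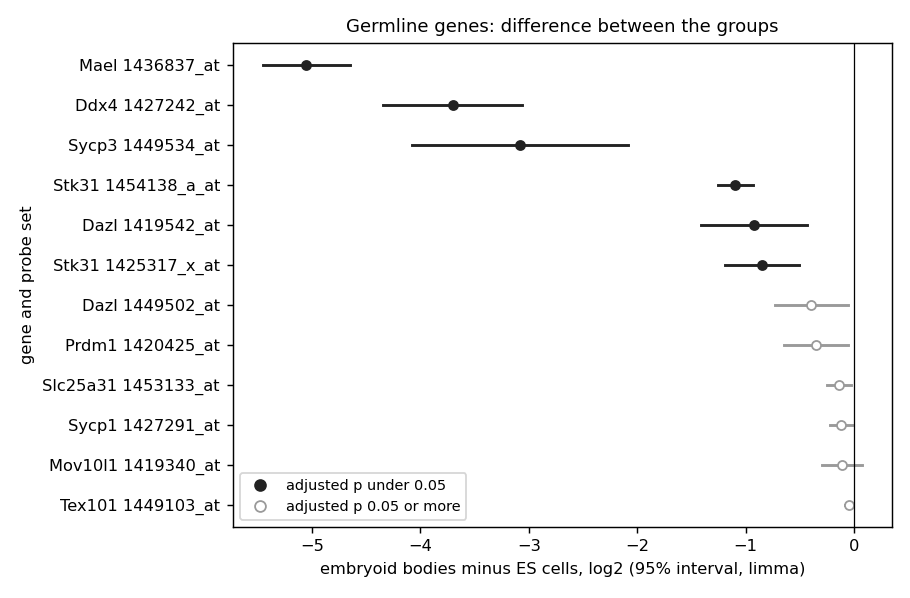
Embryoid body minus ESC difference on the log2 scale (horizontal axis) for the 12 probe sets, with 95% intervals from limma over 9 arrays. Filled points had an adjusted p under 0.05, from Mael (-5.05) to the second Stk31 probe set (-0.85), and open points did not, from the second Dazl probe set (-0.39) to Tex101 (-0.04).

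Sycp1, Slc25a31 and Tex101 gave no clear signal in either group. Sycp1, which forms the transverse filaments of the synaptonemal complex, had values from 2.72 to 2.93 in ESCs and from 2.63 to 2.72 in embryoid bodies. Slc25a31 (Ant4), the ADP/ATP carrier of male germ cell mitochondria, ranged from 2.75 to 2.97 and from 2.60 to 2.75. Tex101, a glycoprotein of the germ cell surface, ranged from 2.44 to 2.48 and from 2.37 to 2.44. Their differences were -0.12, -0.14 and -0.04, with limma adjusted p of 0.081, 0.069 and 0.073. A lower mean in embryoid bodies was the rule at the floor, found in 89.8% of the 6076 genes under log2 4 in both groups. Their median difference was -0.0407, near that of Tex101, while Sycp1 and Slc25a31 fell by more. Over all probe sets under log2 4 in both groups, the 5th percentile of the difference was -0.157. In 0 of the 3 genes did each ESC array lie above each embryoid body array. This was so in 9.64% of the 6076 genes. The signal of these 3 genes is thus only bounded by the floor, and the data do not show that they were without transcripts.

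Mov10l1, an RNA helicase that loads piRNA precursors onto PIWI proteins, gave moderate and even values. Its values were 5.85, 5.79, 5.78 and 5.87 in ESCs and 5.71, 5.74, 5.89, 5.46 and 5.79 in embryoid bodies. The groups overlapped, and the difference was -0.11 (95% interval -0.29 to 0.08, limma adjusted p = 0.29). The interval concerns the values of this probe set. It does not bound a fall of the transcript if the probe set reads mostly background, which was not tested. Mov10, its paralog expressed outside the germline, fell by 1.32 (SE 0.153, limma adjusted p = 2.0e-04).

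Prdm1 (Blimp1) is a transcriptional repressor that founds the germ cell lineage and also acts in endoderm and in blood. Its values were 6.89, 6.74, 6.27 and 6.29 in ESCs and 6.21, 6.27, 6.19, 6.17 and 6.14 in embryoid bodies. ESC arrays 2 and 6 were the high ones, and arrays 8 and 10 lay at the upper end of the embryoid body values, so the groups met. Over all arrays the difference was -0.35 (95% interval -0.65 to -0.06, limma adjusted p = 0.080). It was -0.62 (limma adjusted p = 5.1e-04) without ESC arrays 8 and 10 and -0.08 (0.30) without arrays 2 and 6, so this call depended on which ESC arrays entered. The array sets split at the same number in both groups, and with the set (arrays 1 to 6 against 7 to 10) as a block Prdm1 was called lower (-0.38, limma adjusted p = 0.021). Within the sets its difference was -0.59 and -0.12.

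Within ESCs, several of the genes differed between the array sets. The mean of arrays 2 and 6 exceeded that of arrays 8 and 10 by 1.39 for Sycp3, 0.75 for Mael, 0.68 for Ddx4 and 0.54 for Prdm1. These are the 4 germline genes at log2 6 or more in ESCs. Among all 8686 genes at that level, 6.87% had an excess of 0.5 or more in the same direction, and 8.99% differed by as much in either. For Stk31 the excess was 0.22, for Mov10l1 the means differed by -0.005, and for Dazl arrays 8 and 10 were higher, through array 10. The labels give no reason for the sets, which are no groups of the study, so no test was run between them. Within arrays 1 to 6 and within arrays 7 to 10, the embryoid body minus ESC difference was -5.48 and -4.60 for Mael, -3.92 and -3.54 for Ddx4, and -3.37 and -2.99 for Sycp3. Outside the 10 genes, Dppa3 read 8.50, 8.46, 7.75 and 7.78 on the ESC arrays and Prdm14 read 3.22, 3.39, 4.45 and 5.10, in opposite order.

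Promoter sequence was not used to choose the genes. RefSeq (GRCm38.p6) windows from 250 bases before to 50 after the start site were found for all 10 genes. Each held 15 to 38 CpG dinucleotides, against a median of 7 over 32851 promoters of the same length. The letters CACGTG, the palindromic E-box that Max and Mga are known to bind, occurred in 7 of the 10 genes, and in 7.15% of all promoters and 11.3% of those with at least 15 CpG. The letters GCGGGA, on either strand, the core that E2f6 is known to bind, occurred in 5 of the 10 genes, and in 20% of all promoters (45.4% of those with at least 15 CpG). Both motifs were present in Ddx4, Mael, Sycp1, Sycp3 and Slc25a31, CACGTG alone in Stk31 and Mov10l1, and neither in Dazl, Tex101 and Prdm1. None of the matches overlapped another. The windows of the 3 genes that fell most are shown with those of 2 genes at the floor that hold both motifs too and of Tex101, which holds neither. They read 5′ to 3′ on the strand of the gene, and capitals mark GCGGGA, its reverse complement TCCCGC and CACGTG.
Mael, chr1:166238695-166238994 (- strand): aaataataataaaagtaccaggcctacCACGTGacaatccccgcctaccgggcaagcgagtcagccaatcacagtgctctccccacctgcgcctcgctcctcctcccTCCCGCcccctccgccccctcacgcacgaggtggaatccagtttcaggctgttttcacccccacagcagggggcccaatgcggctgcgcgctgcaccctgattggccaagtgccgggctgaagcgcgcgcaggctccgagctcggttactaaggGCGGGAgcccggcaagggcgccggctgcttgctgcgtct
Ddx4, chr13:112652261-112652560 (- strand): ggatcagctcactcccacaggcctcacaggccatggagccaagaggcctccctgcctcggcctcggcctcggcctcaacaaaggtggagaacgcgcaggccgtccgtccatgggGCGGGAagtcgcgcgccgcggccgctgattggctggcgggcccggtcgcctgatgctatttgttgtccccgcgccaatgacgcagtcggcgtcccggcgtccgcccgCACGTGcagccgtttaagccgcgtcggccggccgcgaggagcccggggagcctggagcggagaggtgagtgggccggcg
Sycp3, chr10:88459337-88459636 (+ strand): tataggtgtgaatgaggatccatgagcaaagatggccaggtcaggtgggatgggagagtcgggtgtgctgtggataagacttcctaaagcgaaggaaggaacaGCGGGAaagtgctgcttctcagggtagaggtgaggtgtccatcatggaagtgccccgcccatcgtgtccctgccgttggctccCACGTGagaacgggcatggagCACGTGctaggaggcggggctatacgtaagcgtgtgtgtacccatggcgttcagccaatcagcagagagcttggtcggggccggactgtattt
Sycp1, chr3:102936051-102936350 (- strand): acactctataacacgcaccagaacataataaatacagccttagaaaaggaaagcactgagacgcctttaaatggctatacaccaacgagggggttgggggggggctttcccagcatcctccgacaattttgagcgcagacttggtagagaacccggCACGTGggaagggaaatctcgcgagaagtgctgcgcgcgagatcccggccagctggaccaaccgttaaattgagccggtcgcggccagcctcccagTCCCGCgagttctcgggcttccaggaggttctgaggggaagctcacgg
Slc25a31, chr3:40708621-40708920 (+ strand): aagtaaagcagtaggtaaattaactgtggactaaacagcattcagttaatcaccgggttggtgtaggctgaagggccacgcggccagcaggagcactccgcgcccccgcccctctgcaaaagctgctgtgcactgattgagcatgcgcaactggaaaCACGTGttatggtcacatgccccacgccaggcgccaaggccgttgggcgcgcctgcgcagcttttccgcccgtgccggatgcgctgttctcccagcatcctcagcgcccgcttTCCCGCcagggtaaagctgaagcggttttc
Tex101, chr7:24672001-24672300 (- strand): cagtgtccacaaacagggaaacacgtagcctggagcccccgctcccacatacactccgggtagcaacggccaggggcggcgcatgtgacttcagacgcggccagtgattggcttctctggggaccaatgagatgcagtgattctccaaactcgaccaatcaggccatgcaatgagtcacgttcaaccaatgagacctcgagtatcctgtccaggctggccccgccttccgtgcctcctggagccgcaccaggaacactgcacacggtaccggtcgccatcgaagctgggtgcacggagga

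Both motifs occurred in genes with the largest falls and in genes at the floor. Sycp3 held CACGTG at -64 and -43 from the start site, Ddx4 at -29 and Mael at -223, and these genes had the largest falls of the 10. Slc25a31 held it at -93 and Sycp1 at -94, each with the other motif just past the start site, and both were at the floor. Dazl, whose fall of 0.92 lay near the floor, held neither motif in the window. Matches are letters in a sequence, and binding at these sites was not measured.

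Genes of the same pathways were read from lists that hold none of the 10 genes. Over all genes 14.7% were called lower by limma, and 33.9% were lower at an unadjusted p under 0.05. Of 15 other piRNA pathway genes, 3 (20%) were called lower and 1 higher, a share near that of all genes, and 8 and 1 were at the unadjusted threshold. The median difference was -0.09 against -0.04 over all genes. The 3 were Tdrd12, Gtsf1 and Mov10, the last also expressed outside the germline. Tdrd12, a Tudor-domain helicase of piRNA synthesis, fell by 3.44 (SE 0.166, limma adjusted p = 1.1e-06) from 7.57 ± 0.41 (SD, n = 4) to 4.13 ± 0.09 (n = 5), with a difference of -2.62 when 16 was added to each intensity. Gtsf1, a cofactor of PIWI proteins, was called lower (limma adjusted p = 2.8e-06) by a probe set with the suffix _x_at whose means, 3.81 and 2.30, both lay under the floor. Its difference was -1.51, or -0.52 with 16 added to each intensity, and the plain probe set gave -0.03 (limma adjusted p = 0.088). Tdrd7, which also acts in the lens, rose by 0.97 (SE 0.0712, limma adjusted p = 1.1e-05) from a mean under the floor, and by 0.53 with 16 added. The PIWI genes themselves, Piwil1, Piwil2 and Piwil4, had differences of -0.09, -0.19 and -0.16 and were not called.

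Of 25 other meiosis genes, 7 were called lower and 0 higher by limma (19 and 0 at an unadjusted p under 0.05), with a median of -0.17. Under log2 4 in both groups lay 14 of the 25, a level where a lower mean in embryoid bodies was the rule over all genes. Syce2, of the central element of the synaptonemal complex, fell by 1.74 (SE 0.0528, limma adjusted p = 1.1e-07) and kept a value of 8.34 ± 0.08 in embryoid bodies. Tex15, a regulator of transposon silencing, fell by 1.61, Syce1 by 1.56 and Hormad1, a protein of the meiotic chromosome axis, by 1.04, with limma adjusted p of 4.7e-04, 4.1e-04 and 0.0019. The embryoid body means of Syce1 and Hormad1, 3.47 and 3.85, lay under the floor, and with 16 added to each intensity their differences were -0.86 and -0.60. Sycp2, the partner of Sycp3 on the axis, had 3.38 ± 0.45 and 2.86 ± 0.06, and its difference of -0.52 was not called (limma adjusted p = 0.070). Dmc1, the meiotic recombinase, and Stra8, the gatekeeper of meiotic entry, had differences of -0.29 and -0.06 and were not called.

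Of 14 primordial germ cell genes, 8 were called lower and 0 higher by limma (10 and 0 at an unadjusted p under 0.05), with a median of -0.98. Most of them are known to be active in pluripotent cells too. Dppa3 (Stella), which protects the maternal genome of the zygote from loss of methylation, fell by 4.17 (SE 0.429, limma adjusted p = 9.3e-05). Its embryoid body mean of 3.96 lay under the floor, with arrays 5 and 9 lowest, and with 16 added the difference was -3.17. Dppa4, Dppa5a and Ifitm1 fell by 3.97, 3.27 and 2.07 (limma adjusted p = 1.6e-05, 3.3e-06 and 8.0e-04). Of 9 other testis and oocyte genes known to be repressed by promoter methylation, 3 were called lower and 0 higher by limma (5 and 0 at an unadjusted p under 0.05), with a median of -0.14. Tex19.1, which restrains transposons in germ cells and placenta, fell by 3.53 (SE 0.248, limma adjusted p = 9.0e-06), and Rhox13, a homeobox gene, by 1.07 (limma adjusted p = 0.014) to a mean of 3.23, under the floor, and its difference was -0.52 with 16 added. Taf7l, a germ cell TFIID subunit, fell by 0.14 (limma adjusted p = 0.039; -0.09 with 16 added), a call that was lost in 7 of the 9 fits with 1 array left out, where adjusted p ranged from 0.033 to 0.10.

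**Figure D3:**
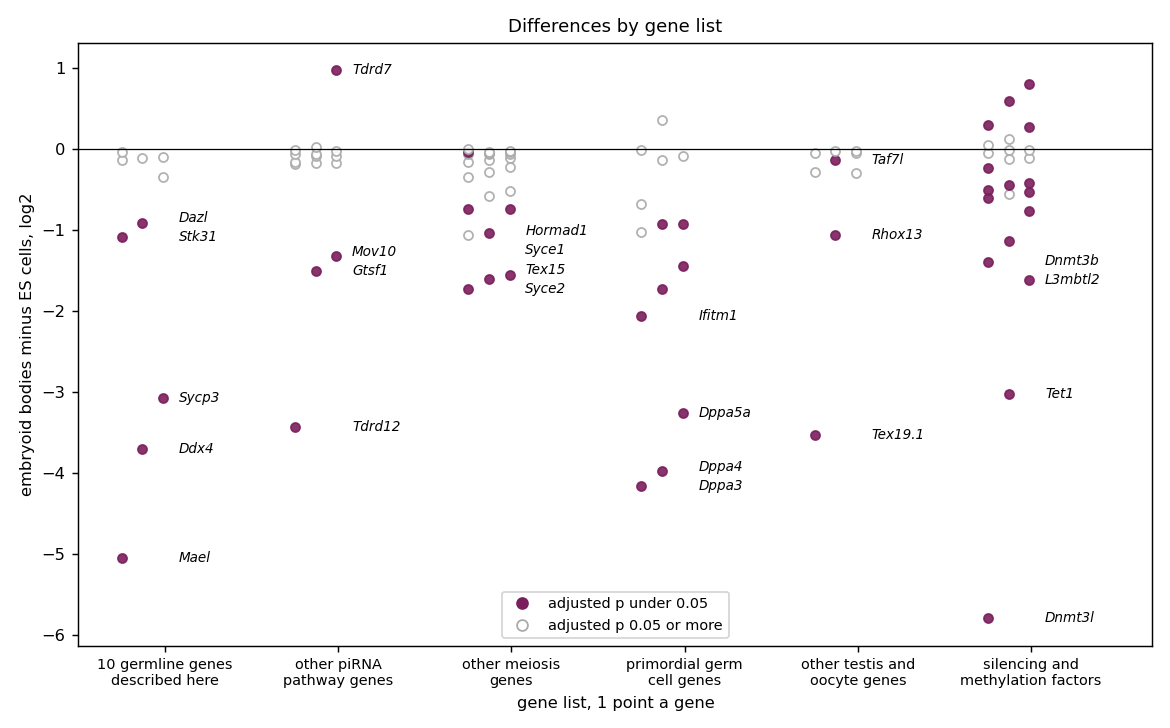
Embryoid body minus ESC difference on the log2 scale (vertical axis) for each gene of 6 lists (horizontal axis), filled where the adjusted p was under 0.05, with up to 4 called genes of each list and the 5 called germline genes named. Mael (-5.05) and Dnmt3l (-5.80) had the lowest differences shown.

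The list of factors that act on germline promoters held 21 silencing factors and, as their counterpart, Tet1, Tet2 and Tet3. Of these 24, 12 (50%) were called lower and 4 (16.7%) higher by limma, beside 14.7% and 15.7% of all genes, with a median of -0.33. At an unadjusted p under 0.05, 16 were lower and 4 higher, beside 33.9% of all genes lower and 3502 of the 18193 higher. Of the 21 without the Tet genes, 11 were called lower and 4 higher, with a median of -0.24. Cbx3 lay under the floor in both groups in the probe set used, which does not show that it was without transcripts. Among the DNA methylation enzymes, Dnmt3l, the cofactor of de novo methylation, fell by 5.80 (SE 0.224, limma adjusted p = 3.4e-07), from 11.14 ± 0.12 (SD, n = 4) to 5.34 ± 0.48 (n = 5). Dnmt3b fell by 1.40 (limma adjusted p = 4.2e-04) but kept 10.59 ± 0.39. Dnmt3a and Dnmt1 had differences of -0.11 and 0.12 and were not called (limma adjusted p = 0.088 and 0.15), and Uhrf1, which recruits Dnmt1, fell by 0.45. Tet1, which oxidizes methylated cytosine, fell by 3.02 (SE 0.237, limma adjusted p = 1.7e-05).

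In the E2f6 and Mga repressor, the subunits did not move one way. E2f6 rose by 0.80 (SE 0.0958, limma adjusted p = 2.4e-04), from 7.66 ± 0.16 to 8.46 ± 0.14. L3mbtl2 and Pcgf6 fell by 1.62 and 1.13 (limma adjusted p = 1.8e-06 and 3.2e-07), Mga by 0.53 (limma adjusted p = 0.010), and Max had a difference of -0.05 (limma adjusted p = 0.37). Of the histone H3 lysine methyltransferases, Ehmt2 (G9a) fell by 0.61 and Setdb1 by 0.24, whereas Ehmt1 (GLP) rose by 0.29. Hdac1 fell by 0.51 and Hdac2 rose by 0.60. The part of these factors in the fall of Mael, Ddx4 and Sycp3 was not tested.

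**Figure D4:**
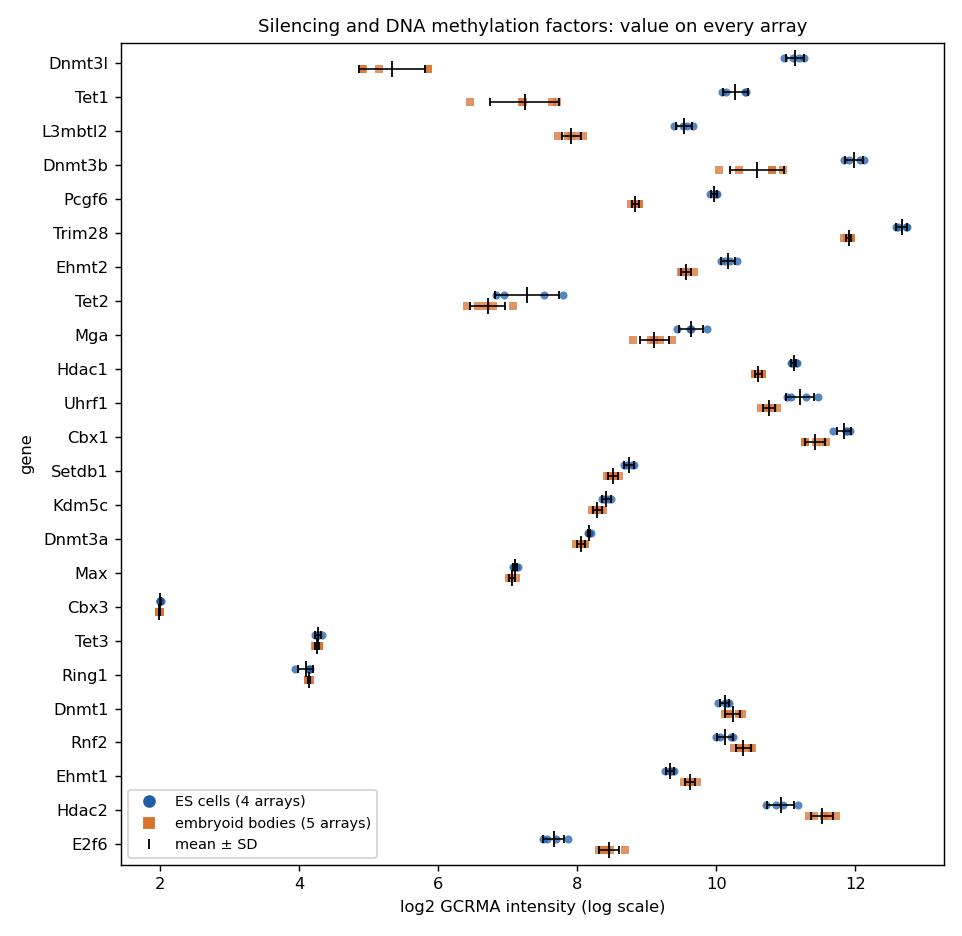
Values of 21 silencing factors and 3 Tet genes (horizontal axis, log2 GCRMA intensity) on each of 4 ESC arrays (circles) and 5 embryoid body arrays (squares), with mean ± SD, ordered by difference. Dnmt3l goes from 11.14 to 5.34 and E2f6 from 7.66 to 8.46, while Dnmt1 stays near 10.13 and 10.24.

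For Mael, Ddx4, Sycp3 and Prdm1, the genes with the most similar pattern over the 9 arrays were found among 9203 genes at log2 6 or more in a group. For Mael these were Tgm1, a transglutaminase (Pearson r = 0.999), Sap30, a subunit of the Sin3 corepressor (0.998), and 1190005I06Rik (0.998). For Ddx4 they were Dcaf13, Slc44a1 and Fmr1nb (0.994 to 0.997), for Sycp3 Stx3, Cdca3 and Serbp1 (0.994 to 0.995), and for Prdm1 Flywch2, Imp3 and Crb3 (0.985 to 0.988). The likeness includes the difference between the groups. Size does not enter it: mean values in ESCs and embryoid bodies were 8.60 and 3.94 for Tgm1, 6.94 and 2.88 for 1190005I06Rik, and 10.83 and 10.24 for Dcaf13.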

How the data were processed

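Expression was measured in 4 ESC and 5 embryoid body samples of the E14 line on Affymetrix arrays. The deposited unit is a linear GCRMA intensity for each probe set, as the authors computed it. GCRMA corrects background by probe sequence, normalizes between arrays and summarizes the probes of a set, and its low values lie near a floor. Whether all 9 arrays were normalized in a single run is not given in the sources used here. The log2 was taken with no further normalization, and the 64 control probe sets were left out.

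Groups were taken from the sample titles. The study calls the ESC samples biological replicates but does not describe the embryoid bodies, so p-values measure the spread between these samples, which may be technical. Embryoid bodies were compared with ESCs by limma (version 3.58.1, R 4.3.3; two-sided, with a robust eBayes and an intensity trend). The Benjamini-Hochberg adjustment covered 45037 probe sets, and calls were made at an adjusted p under 0.05. The procedure was tested on simulated data. By the array annotation that GEO holds, 34945 were paired with 1 gene symbol, 932 with several and 9160 with none, and a gene was represented by its paired probe set of highest mean. Precision is limited by the number of arrays, for which depth has no meaning.

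The 10 genes, the lists and the tests were chosen with earlier results of these data known. Named genes were the 10, up to 4 called genes of each list with the largest difference, and up to 3 genes most alike in pattern. E2f6, Mga, Max, Pcgf6, the further silencing and methylation factors, Sycp2, Dmc1, Stra8, the PIWI genes and Prdm14 were named after their values were seen. Promoters came from RefSeq (GRCm38.p6). Alternatives were quantile normalization, median centring, 16 added before the log2, a filter at log2 4, eBayes without trend and robust, array weights, plain probe sets, a test against log2 1 and each array left out. Promoter tables were read with pandas 2.3.3 and figures drawn with matplotlib 3.10.9.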

Additional observations from a re-analysis of the deposited data

Results flagged for a closer look

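Among 24 combinations of probe set and group, 3 held an array whose distance from its nearest neighbour took up most of the range of its group, beyond the 95% critical value of Dixon's test. Chance gives about 1 in 20. For Dazl (1419542_at), ESC array 10 read 4.91, and the next ESC array 4.01, and embryoid body array 3 read 2.87, and the next 3.34. For Tex101, ESC array 10 read 2.48 and the next 2.44, a distance within the floor.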

How the results depend on the processing

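No paired analysis was run, because the labels do not say whether samples of the groups belong together. Over 22 alternatives, 5 of them (leaving out sets of arrays, and the set as a block) chosen after seeing the data, 216 differences of the 10 genes were computed, of which 202 kept direction and side of the threshold, 3 lost and 11 gained the call, and 0 changed sign. Mael, Ddx4 and Sycp3 passed in each fit, at -5.43 to -4.06, -4.04 to -3.02 and -3.78 to -2.39. Between 4 and 7 of the 10 genes were called, except against a difference of log2 1, where 3 were (Dazl at -0.92 and Stk31 at -1.09 both had an adjusted p of 1). Dazl lost the call without embryoid body arrays 1, 3 and 5 (-0.81). Prdm1 was called under quantile normalization (-0.46), array weights (-0.46) with the array set as a block (-0.38; 6 of the 10 genes and 43 list genes were then called) and without ESC arrays 8 and 10 (-0.62). Tex101 was called under median centring (-0.027) and array weights (-0.034), and Sycp1 under median centring (-0.10). With single arrays left out, the differences ranged from -0.44 to -0.24 for Prdm1, -0.167 to -0.094 for Slc25a31 and -0.053 to -0.035 for Tex101, with calls for Prdm1 without ESC array 8 or 10 and for the others without embryoid body array 9. Sycp1, Slc25a31 and Tex101 do not enter the fit filtered at log2 4, and Stk31 has no plain probe set. Of the other germline and silencing lists together 38 genes were called, 58 with array weights, 12 against log2 1 and 35 to 49 with single arrays left out. Fewer or more were called lower as follows: piRNA genes (main 3) 5 under median centring, 8 with array weights, 1 with plain probe sets and 3 to 7 with single arrays left out. Meiosis genes (main 7) were 16 with array weights, 4 with plain probe sets, 1 against log2 1, 4 without embryoid body arrays 1, 3 and 5, and 6 to 12 with single arrays left out. Testis and oocyte genes (main 3) were 5 with array weights, 1 against log2 1, 1 without embryoid body arrays 7 and 9, 1 without 1, 3 and 5, and 2 to 5 with single arrays left out. Primordial germ cell genes (main 8) were 5 against log2 1 and silencing and methylation factors (main 12) 7 with plain probe sets and 3 against log2 1. Called higher were 1 primordial germ cell gene with array weights, 1 without ESC arrays 8 and 10 and 0 to 1 with single arrays left out, and against log2 1 0 piRNA genes (main 1) and 0 silencing factors (main 4). The causes were not tested. In the 250 bases before the start alone, GCGGGA was found in 3 of the 10 genes and CACGTG in 7. Values near the floor limit what can be said of Sycp1, Slc25a31, Tex101 and Dazl, and 4 and 5 arrays of a single cell line limit the rest.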
